A study of Mus musculus with 250 samples.

Results

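Single brain astrocytes with the most Malat1 RNA were compared with those with the least. Malat1 is a long noncoding RNA that stays in the nucleus, gathers at nuclear speckles and is among the most abundant transcripts of many cell types. Within each of 2 plates the cells were ranked by Malat1 CPM, which is a gene's share of the cell's reads scaled to a total of 1000000. The 20% of cells with the highest and the 20% with the lowest value of each plate made up the compared groups, so that 98 of the 250 cells of the series were members. Plate 2 gave 32 Malat1-high and 32 Malat1-low cells of 162, plate 3 gave 17 and 17 of 88, and the other 152 cells lay between them. All cells came from adult C57BL/6 mice of about 3 months that carried SM22-Cre and Rosa26-stop-tdTomato. In these mice Cre is driven by the SM22 promoter, which belongs to the smooth muscle gene Tagln, and it removes a stop before a red fluorescent protein. Cells were sorted by fluorescence into wells and read with Smart-seq2, which copies full-length polyadenylated RNA and has no molecular identifiers. The sources used here give neither the sorting gate nor the animal of a cell. The plates are the prefixes Brain.VSMC2 and Brain.VSMC3 of the cell names in the table, and they were kept apart throughout.

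The groups are cut from a measured value, and the cells are not replicates of a treatment. No test was therefore run on them, spreads are SDs between cells, and each difference is a description of these 98 cells. Malat1 itself chose the groups and is given only as the cut. On plate 2 it ran from 1755 to 169966 CPM with a median of 28089 CPM. The last cell inside the low group had 21940 CPM and the first outside 22137 CPM, while the last cell outside the high group had 36345 CPM and the first inside 36372 CPM. On plate 3 Malat1 ran from 10656 to 144296 CPM with a median of 26643 CPM, with 20685 and 20824 CPM on either side of the low cut and 40201 and 40684 CPM on either side of the high cut. Cells just inside and just outside a cut were thus nearly alike in Malat1, and the groups are ends of a range and not types of cell. At a given number of Malat1 reads, a cell with more reads of other genes ranks lower, since the total is the denominator of the ranking value.

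**Figure D1:**
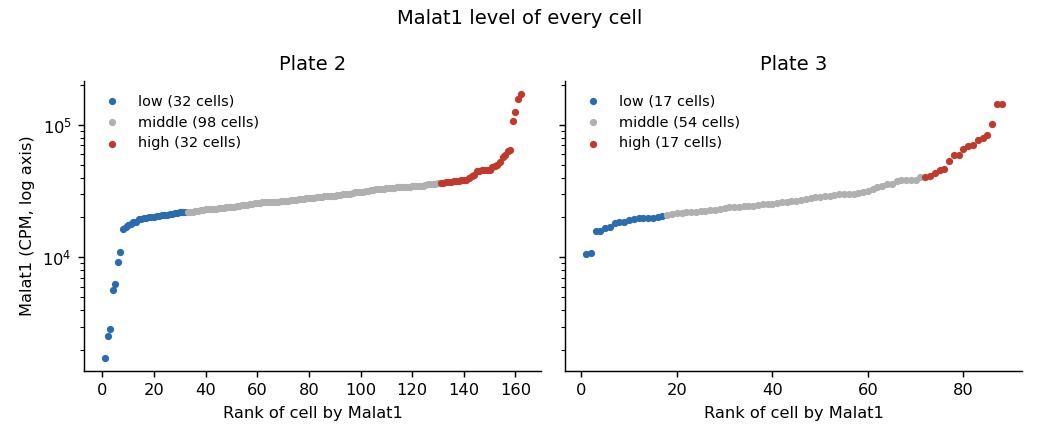
Malat1 CPM on a log axis against the rank of each cell, with 162 cells of plate 2 on the left and 88 cells of plate 3 on the right. Each point is a cell, colored by group, and the curve is flat through the middle cells and steep at the ends, up to 169966 CPM on plate 2 and 144296 CPM on plate 3.

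Speckles are nuclear bodies rich in splicing factors, and Malat1 lies at their edge. Neat1, its neighbor on chromosome 19, is the scaffold of another nuclear body, the paraspeckle. The 3′ ends of Malat1 and of the long form of Neat1 are made by cleavage and not by addition of a poly(A) tail, and they are protected by a triple helix between U-rich stretches and an A-rich stretch. These ends are shown because cDNA was made of polyadenylated RNA, and both RNAs are read out here. The sequences are 95 bases each from GENCODE M21 transcripts on GRCm38, the assembly that mm10 names, on the minus strand, as DNA letters 5′ to 3′. Malat1-201 is shown from chr19:5795982-5796076 and Neat1-201 from chr19:5824708-5824802. Capitals mark every stretch of at least 11 bases that both windows share.
Malat1-201: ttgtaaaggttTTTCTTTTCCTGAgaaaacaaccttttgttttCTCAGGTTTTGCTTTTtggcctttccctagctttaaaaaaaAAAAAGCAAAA
Neat1-201: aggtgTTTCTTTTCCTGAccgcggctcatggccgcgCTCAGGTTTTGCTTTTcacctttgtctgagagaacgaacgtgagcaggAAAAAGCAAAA
The shared stretch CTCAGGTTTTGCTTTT was found in transcripts of 2 of the 55341 annotated genes, which were these 2. TTTCTTTTCCTGA was found in 21 genes, and AAAAAGCAAAA in 376 genes, or 0.679%. The longest run of A in Malat1-201 was 12 bases and in Neat1-201 7 bases. Malat1 spans chr19:5795690-5802672. How each RNA was primed was not tested.

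Malat1-high cells had fewer reads in total on both plates. On plate 2 the lowest, median and highest total were 136749, 278760 and 376718 reads in Malat1-low cells and 102161, 203958 and 314935 reads in Malat1-high cells. The medians stood at a ratio of 0.732, and 27 of 32 high cells were under the low group's median. On plate 3 the values were 144150, 364680 and 564958 reads in low cells and 126083, 333104 and 408402 reads in high cells, a ratio of 0.913, with 10 of 17 high cells under the low median. The ranges overlapped on both plates. Malat1 reads, the numerator of the ranking value, had medians of 5258 and 9506 reads on plate 2 and 6807 and 17965 reads on plate 3 in low and high cells, and as part of the rule they are given as a description. Over all cells of a plate, Spearman's rho between Malat1 CPM and total reads was -0.286 on plate 2 and -0.31 on plate 3. Both measures share the cell's total.

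Fewer genes were detected in Malat1-high cells, mainly on plate 3. A gene was called detected at 10 CPM, and from here on every CPM leaves Malat1 and Rn45s, the ribosomal RNA precursor, out of the total. On plate 2 the lowest, median and highest number of genes were 1280, 2464 and 2929 in low cells and 1636, 2269 and 2806 in high cells. On plate 3 they were 2205, 2629 and 3160 in low cells and 1410, 1963 and 2466 in high cells. All 17 high cells of plate 3 lay under the low group's median, while the ranges still overlapped. After each cell was thinned to 50000 reads the medians were 2443 and 2268 genes on plate 2 and 2582 and 1951 genes on plate 3, so the difference was present at equal depth. Across all cells, rho between genes detected and Malat1 CPM was -0.11 on plate 2 and -0.591 on plate 3. Rn45s had means of 14983 ± 5061 and 17674 ± 10354 CPM of the whole total in low and high cells of plate 2, and of 16887 ± 3386 and 32144 ± 28188 CPM on plate 3. A single high cell of plate 3 reached 130685 CPM of Rn45s.

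**Figure D2:**
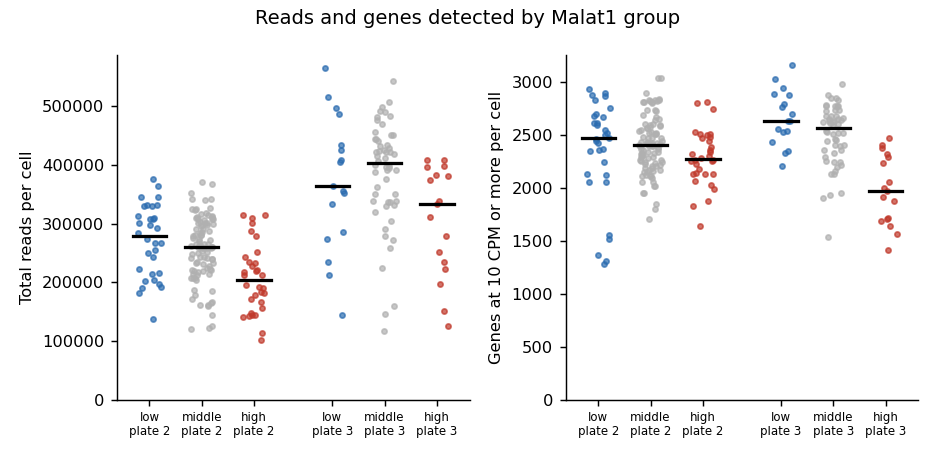
Total reads per cell (left) and genes at 10 CPM or more per cell (right) for low, middle and high cells of each plate. Points are cells and bars are medians, and the high group of plate 3 has a median of 1963 genes against 2629 in the low group.

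For levels of single genes and lists, the mean CPM of high cells was divided by that of low cells, and 5897 genes with a mean of at least 20 CPM over the compared cells of each plate were kept. A gene counted as higher or lower where it passed 1.5-fold in the same direction on both plates. By this measure 788 genes (13.4%) were higher and 530 genes (8.99%) were lower. On plate 2 alone 30.2% were higher and 23.8% lower, and on plate 3 alone 37.1% and 31.1%, so most single-plate differences were not shared. At any size, 31.9% were higher on both plates and 23.5% lower on both. The median log2 ratio over all 5897 genes was 0.10 on plate 2 and 0.13 on plate 3, which is the shift against which each list is read. Across these genes the log2 ratios of the plates had a rho of 0.105, and over the 927 genes detected in at least 50% of compared cells 0.343. Genes are not independent replicates. A gene read in few cells can pass the limit through the sampling of cells alone, so these are not counts of changed genes, and they serve as the background for the lists. Among the 927 genes, 78 (8.41%) were higher and 36 (3.88%) were lower, and at any size 34.7% and 28.3%. In 154 of the tested genes a group had 0 reads on a plate, and its ratio was then taken against 3 reads over that group.

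The genes that astrocytes express most had a smaller share of the reads in Malat1-high cells. The 100 genes with the highest mean in the series held a median of 31.2% of reads in low cells and 26.3% in high cells of plate 2, and 31.4% and 24.8% on plate 3. In 30 of 32 high cells of plate 2 and 17 of 17 of plate 3 the share was under the low median. Of the 91 tested genes with a mean of at least 1000 CPM over all 250 cells, 65.9% were lower on both plates at any size, with median log2 ratios of -0.19 and -0.40. The 1970 genes under 50 CPM had medians of 0.19 and 0.22. A CPM is a share, so lower shares of abundant genes and higher shares of the others are bound to each other.

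**Figure D3:**
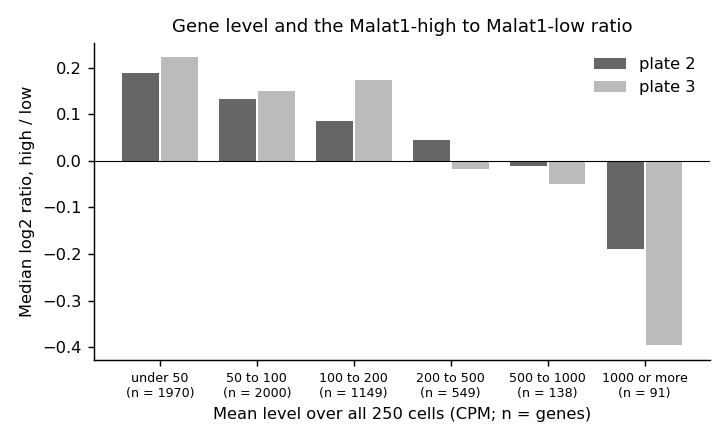
Median log2 ratio of mean CPM, Malat1-high over Malat1-low, for tested genes binned by their mean CPM over all 250 cells. Dark bars are plate 2 and light bars plate 3, and the medians go from 0.19 and 0.22 under 50 CPM to -0.19 and -0.40 at 1000 CPM or more.

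The label of the cells was checked on 18 astrocyte markers. A median of 16.5 markers was detected in low and 16 in high cells of plate 2, and 17 and 16 on plate 3, so cells at both ends carried most of these markers. Their summed level was nevertheless lower in high cells, at 56923 ± 7389 CPM in low and 49484 ± 8679 CPM in high cells of plate 2 (log2 ratio -0.20) and 59991 ± 6285 and 46094 ± 6099 CPM on plate 3 (log2 ratio -0.38). All 17 high cells of plate 3 and 25 of 32 of plate 2 were under the low median. Of the 18 markers, all tested, 3 passed 1.5-fold lower on both plates (16.7%, where 8.99% of all tested genes did) and 0 higher (13.4% of all). Gfap, 1 of the 3, met the filter of plate 2 through low cells alone, so its call adds no support. At any size 11 were lower (61.1%, beside 23.5% of all tested genes) and 1 higher (5.56%, beside 31.9%). Of the 91 tested genes with a mean of at least 1000 CPM, however, 65.9% were lower. The median marker had log2 ratios of -0.22 and -0.23, beside -0.19 and -0.40 for those abundant genes. A difference particular to astrocyte markers was therefore not separated from gene level.

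Slc1a3, the glutamate transporter GLAST, at chr15:8634124-8710807, was 1 of these 3. Its lowest, median and highest level were 0, 4967 and 16037 CPM in low and 674, 2787 and 8115 CPM in high cells of plate 2. On plate 3 they were 1091, 4971 and 12232 CPM in low and 5.73, 2277 and 7675 CPM in high cells, and the groups overlapped on both plates. The log2 ratio of its means was -0.67 on plate 2 and -1.17 on plate 3. Mlc1, a membrane protein of astrocyte endfeet, had means of 1980.2 ± 1097 and 1241 ± 874 CPM on plate 2 and 1934 ± 1155 and 1103 ± 1106 CPM on plate 3. Gfap, the intermediate filament of reactive astrocytes, was detected in 4 low and 0 high cells of plate 2 and in 6 low and 3 high cells of plate 3, too few for its level to be read, and its plate 2 ratio was taken against the 3-read limit. Slc4a4, a bicarbonate cotransporter, had log2 ratios of -0.58 and -0.54 and stayed just under the limit on both plates. Slc1a2, the glutamate transporter GLT-1, had -0.027 and -0.65, and its plate 3 value was -0.38 without 1 cell. The gap junction gene Gja1 had -0.24 and -0.16, the water channel Aqp4 0.37 and -0.13 and the glutamine synthetase gene Glul, the marker higher on both plates, 0.23 and 0.30.

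Genes of secreted proteins, which are among the most abundant transcripts of these cells, were lower in Malat1-high cells as a list. The list of 20 had a summed level of 98625 ± 20369 CPM in low and 75811 ± 18586 CPM in high cells of plate 2 (log2 ratio -0.38), and of 105176 ± 30576 and 72819.5 ± 16804 CPM on plate 3 (log2 ratio -0.53). Of its 18 tested members 14 were lower on both plates at any size (77.8%, beside 23.5% of all tested genes) and 2 higher (11.1%, beside 31.9%). Past 1.5-fold, 5 were lower (27.8%, where 8.99% of all tested genes were) and 0 higher. Of these 5, Dkk3 and A2m were detected in 0 high cells of plate 3. They met the filter there through low cells, so their calls add no support. The median member had a log2 ratio of -0.41 on plate 2 and -0.68 on plate 3, beside 0.10 and 0.13 over all genes. The list was put together with earlier results of these data known, and several of its genes lie in the abundance range where most genes were lower.

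Clu, which codes for the chaperone and lipoprotein clusterin, at chr14:65968483-65981548, had the lowest rank correlation with Malat1 by the naming rule. In low cells of plate 2 its lowest, median and highest level were 3609, 9720.1 and 20177 CPM, and in high cells 2021, 6172 and 14910.2 CPM. On plate 3 low cells had 5640.4, 10622 and 30191 CPM and high cells 488, 6529 and 12903 CPM. The medians of the high groups were lower on both plates and the ranges overlapped, with log2 ratios of -0.72 on plate 2 and -0.91 on plate 3. Apoe, the main lipid carrier of the brain, at chr7:19696244-19701310, had 9373, 20252 and 40398 CPM in low and 8458, 14123 and 28109.9 CPM in high cells of plate 2. On plate 3 it had 12612, 24284 and 43769.8 CPM in low and 3541, 13713 and 21118 CPM in high cells. Its log2 ratios of -0.43 and -0.71 passed 1.5-fold on plate 3 alone. Mfge8, which bridges phosphatidylserine and integrins, went from a mean of 2480.1 ± 2286 CPM in low to 1346 ± 940.5 CPM in high cells of plate 2 and from 2520.2 ± 1314 to 1238 ± 859 CPM on plate 3. Pltp, a phospholipid transfer protein, had log2 ratios of -1.06 and -1.40. Dkk3 was detected in 9 low and 2 high cells of plate 2 and in 4 and 0 of plate 3, and the protease inhibitor gene A2m in 8, 3, 4 and 0 cells in that order. Cpe, an enzyme of prohormone processing, had log2 ratios of -0.56 and -0.80 and Agt, angiotensinogen, -0.54 and -0.65. Without 1 cell of plate 3 both stood at -0.49 there. Cst3, a secreted protease inhibitor, had -0.19 and 0.031 and Htra1, a secreted protease, 0.24 and 0.017.

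Genes of speckle and splicing proteins were higher in Malat1-high cells as a list. Their summed level was 9434 ± 3559 CPM in low and 12659 ± 2915 CPM in high cells of plate 2 (log2 ratio 0.42), and 9068 ± 2329.6 and 14136 ± 5395 CPM on plate 3 (log2 ratio 0.64, and 0.54 without 1 cell). In 28 of 32 high cells of plate 2 and 14 of 17 of plate 3 the sum was above the low median. Of 33 members 31 were tested, 18 were higher on both plates at any size (58.1%, beside 31.9% of all tested genes) and 3 lower (9.68%, beside 23.5%). Past 1.5-fold, 7 were higher (22.6%, where 13.4% of all tested genes were) and 1, Srsf10, was lower (3.23%, beside 8.99%). Of the 7, 3 (Son, Srsf5 and Acin1) fell under the limit without 1 cell, chosen for each gene. The median member had a log2 ratio of 0.43 on plate 2 and 0.55 on plate 3. Over all cells of a plate, rho between the summed level and Malat1 CPM was 0.356 on plate 2 and 0.409 on plate 3, while the number of members detected had rho of 0.0879 on plate 2 and -0.34 on plate 3. The list was chosen with earlier results of these data known.

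Son, a large scaffold protein of speckles, at chr16:91647824-91679192, had a lowest, median and highest level of 3.16, 1066 and 3932 CPM in low and 588, 1885 and 6332 CPM in high cells of plate 2. On plate 3 it had 108, 863 and 3295 CPM in low and 91, 1261 and 7495 CPM in high cells. The groups overlapped widely, and its log2 ratios of 0.65 and 0.69 were 0.56 and 0.37 without 1 cell of the plate, both under the 1.5-fold limit of 0.58. Rbm25, a regulator of splice site choice, was detected in 13 low and 25 high cells of plate 2 and in 11 and 13 of plate 3. Its means were 134 ± 337 and 343 ± 332 CPM on plate 2 and 201 ± 288 and 451 ± 584 CPM on plate 3. Pnisr, which codes for a serine- and arginine-rich nuclear protein, had log2 ratios of 0.81 and 1.1, Pnn, pinin, 0.92 and 1.62, and the SR protein gene Srsf11 1.26 and 1.15. Srsf5, another SR protein gene, had 0.74 and 0.64 and Acin1, acinus, 2.72 and 0.63, and without 1 cell their plate 3 values were 0.48 and 0.29. Srrm2, a second speckle scaffold, had 0.44 and 1.14 and passed on plate 3 alone. Srsf10 had means of 59.4 and 26.5 CPM on plate 2 and 70.6 and 6.83 CPM on plate 3, so the SR protein genes did not all go one way.

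**Figure D4:**
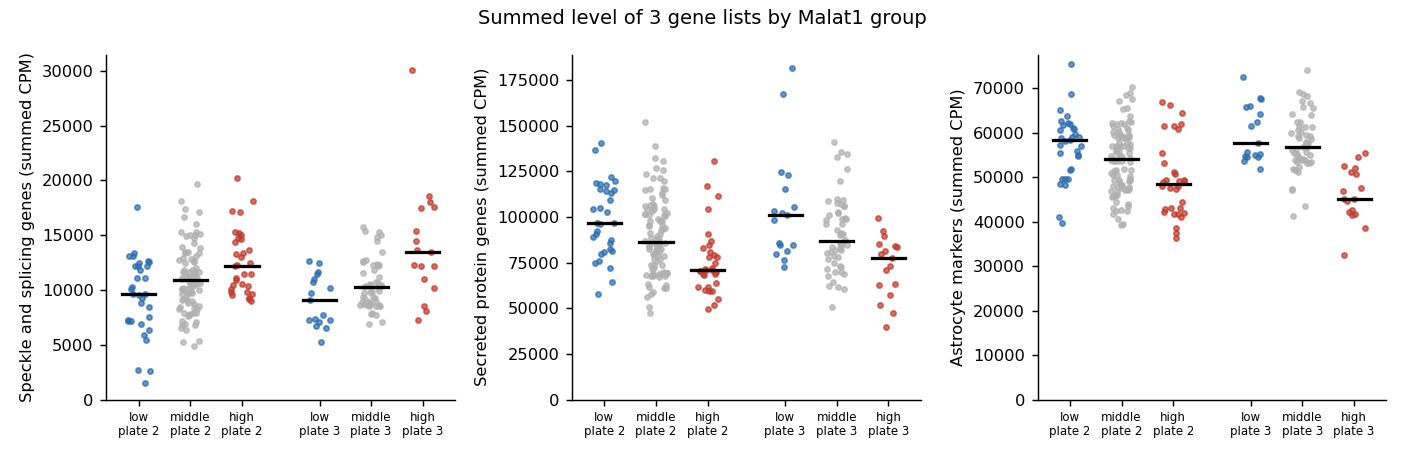
Summed CPM of the speckle and splicing, secreted protein and astrocyte lists in low, middle and high cells of each plate. Points are cells and bars are medians, and the median of the speckle and splicing list is 9625 CPM in low and 12222 CPM in high cells of plate 2.

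Other nuclear noncoding RNAs went in both directions. Of 22 on the list 21 had a row and 8 were tested, and of these 4 were higher (50%, beside 31.9% of all tested genes) and 2 lower (25%, beside 23.5%) on both plates at any size. Past 1.5-fold 1 of 8 was higher (12.5%, beside 13.4%) and 0 lower. Their summed level without Malat1 was 1608 ± 1081 CPM in low and 1775 ± 1163 CPM in high cells of plate 2 (log2 ratio 0.14) and 1273 ± 822 and 2204 ± 1847 CPM on plate 3 (log2 ratio 0.79). The medians were 1532 and 1532 CPM on plate 2, where 16 of 32 high cells were above the low median, and 11 of 17 were on plate 3. The long form of Neat1 shares the marked stretches of the 3′ end shown above, and the counts are per gene and do not tell its forms apart. Neat1 had a lowest, median and highest level of 0, 15.8 and 3129.6 CPM in low and 0, 70.3 and 1785 CPM in high cells of plate 2. On plate 3 it had 0, 106 and 1378 CPM in low and 0, 9.31 and 1695 CPM in high cells. The log2 ratios of its means, -0.43 on plate 2 and 0.12 on plate 3, differed in sign, and it was detected in 18 and 18 cells of plate 2 and in 10 and 8 of plate 3. Kcnq1ot1, an imprinted antisense RNA, had 0.24 and 1.49, although the same number of cells of plate 3, 11 and 11, had it. Firre, an X-linked nuclear RNA, had 0.42 and 0.96, and 0.38 on plate 3 without 1 cell. Tug1 had -0.43 and -1.06 and Pantr1 -0.14 and -0.72. Meg3, an imprinted RNA, was the 1 member past 1.5-fold on both plates with 0.96 and 2.04, but it was detected in only 9 low and 6 high cells of plate 2, and its plate 2 value was 0.0061 without 1 cell. Xist was detected in 2 of 17 high cells of plate 3 and in 0 of the other compared cells.

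Single ribosomal protein genes did not differ in a shared direction, while their summed level was slightly higher in high cells on both plates. Of 80 names 78 had a row and 11 were tested. Of these, 2 were higher (18.2%, beside 31.9% of all tested genes) and 1 lower (9.09%, beside 23.5%) on both plates at any size. The other 8 were of opposite sign, as were 2633 of all 5897 tested genes. Past 1.5-fold on both plates there were 0 in either direction, against 13.4% and 8.99% of all tested genes. Their summed level was 1124 ± 430.4 and 1210.2 ± 460.4 CPM in low and high cells of plate 2 and 1004 ± 468 and 1162 ± 585 CPM on plate 3. The log2 ratios of these sums were 0.11 and 0.21, beside medians of 0.10 and 0.13 over all tested genes. How reads that match several genes, such as ribosomal protein genes and their pseudogenes, were counted is not stated in the labels or files, and with 67 of the 78 genes under the filter the list says little. Of the snoRNA host genes 3 of 10 were tested, and all 3 were higher on both plates at any size (100%, beside 31.9% of all tested genes). Their list had summed log2 ratios of 0.49 and 1.31. Past 1.5-fold on both plates 1 of the 3 was higher (33.3%, beside 13.4%) and 0 lower. This was Snhg3, with 1.95 and 1.27, and 0.54 on plate 3 without 1 cell. Gas5 had log2 ratios of 0.27 and 1.40. Of 17 tested translation factor genes 1, Eif2s2, passed higher (5.88%) and 0 lower, and its plate 3 value turned to -0.36 without 1 cell. In the respiratory chain, 8 of 67 tested genes (11.9%, beside 13.4% of all) were higher past 1.5-fold on both plates and 0 lower, and 4 of the 8 (Ndufb10, Ndufv2, Atp5j and Atp5k) fell under the limit without 1 cell. At any size 36 of the 67 were higher on both plates (53.7%, beside 31.9% of all) and 6 lower (8.96%, beside 23.5%). That list had median log2 ratios of 0.20 and 0.66, and its summed level had 0.0025 and 0.41. Ndufb9, a complex I subunit, had 1.00 and 1.01. Immediate early and stress genes had a summed log2 ratio of -1.17 on plate 2 and 0.24 on plate 3, where 3 of 12 alternatives turned it, down to -0.22, and housekeeping genes -0.16 and -0.058.

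The naming rule took the 15 genes with the largest ratio in each direction by their weaker plate, with no cell holding 20% or more of a gene's level. Among the higher genes, Gria2, an AMPA receptor subunit gene at chr3:80681450-80804227, was detected in 18 low and 30 high cells of plate 2. It had a lowest, median and highest level of 0, 24 and 1318 CPM in low and 0, 517 and 2286 CPM in high cells there. On plate 3 it had 0, 201 and 1630.1 CPM in low and 0, 689.6 and 4761 CPM in high cells. Overlap was wide, and its log2 ratios were 1.59 and 1.62. Daam2, a formin of actin assembly and Wnt signaling, had 1.03 and 1.54, the cell adhesion gene Pcdh9 1.19 and 1.54, the calcineurin subunit gene Ppp3ca 1.47 and 1.53 and the kinase gene Prpf4b, which acts in splicing, 1.01 and 1.86. The chromatin remodeler genes Chd2 and Baz1b had 1.58 and 1.00 and 1.00 and 1.38. The others were Rnf214, Rbm25, Srsf11, Prodh, a numbered row of Syne1 (Syne1.1), Ankrd12, Ndufb9 and Ccdc141.

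Fads2, a fatty acid desaturase gene at chr19:10062765-10101503, was among the 15 lower genes and also among the 10 with the lowest rank correlation. It was detected in 28 low and 20 high cells of plate 2 and in 17 low and 7 high cells of plate 3. Its lowest, median and highest level were 0, 564 and 1511 CPM in low and 0, 62.5 and 1546 CPM in high cells of plate 2. On plate 3 they were 326, 919 and 1816 CPM in low and 0, 4.14 and 1323 CPM in high cells, so that most high cells there had little of it while some reached the low group's range. Its log2 ratios were -1.24 and -1.98. Scamp5, a secretory carrier membrane protein gene, had -1.85 and -2.94, the proteasome subunit gene Psmd2 -1.96 and -2.46, the phosphatidylserine synthase gene Ptdss1 -1.69 and -2.41, and Vps35, of the retromer, -1.34 and -3.32. Idh1, an isocitrate dehydrogenase gene, had -1.57 and -1.35 and the zinc transporter gene Slc39a7 -1.37 and -2.16. The others were Lamb2, Notch3, Hspa2, Pea15a, Ssbp2, Arrb1, Tubb5 and Tspan6.

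Over all 250 cells, ranks within each plate gave a second view that the middle cells share. The 10 genes with the highest rho with Malat1 CPM by their weaker plate were Gria2, Mt1, Syne1.1, Arglu1, Ccdc141, Pabpn1, Daam2, Mt2, Limk2 and Vav3. Mt1, a metallothionein gene, had rho of 0.214 and 0.418, and its medians were 805 and 1258 CPM in low and high cells of plate 2 and 997 and 1973 CPM on plate 3. Pabpn1, the nuclear poly(A)-binding protein gene, had rho of 0.346 and 0.186. Its log2 ratios of 1.85 and 1.90 were 1.71 and 1.51 without 1 cell, chosen for each value. It was not among the higher genes named by ratio, where no cell could hold 20% or more of a gene's level. The 10 lowest were Clu, Fads2, Apoe, Itm2b, Ttyh1, Lamp1, Nnat, Sparcl1, Slc1a3 and Maob. Clu had rho of -0.419 and -0.368, Fads2 -0.331 and -0.453, and Apoe -0.33 and -0.428. Lamp1, a lysosomal membrane protein gene, went from a median of 1785 CPM in low to 796 CPM in high cells of plate 2 and from 1706 to 753 CPM on plate 3. Nnat, an imprinted gene, had medians of 1637 and 232 CPM on plate 2 and 569 and 31 CPM on plate 3. These rho values were taken from 162 and 88 cells that share a plate and the total of each cell, and the highest and lowest genes were picked by them.

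**Figure D5:**
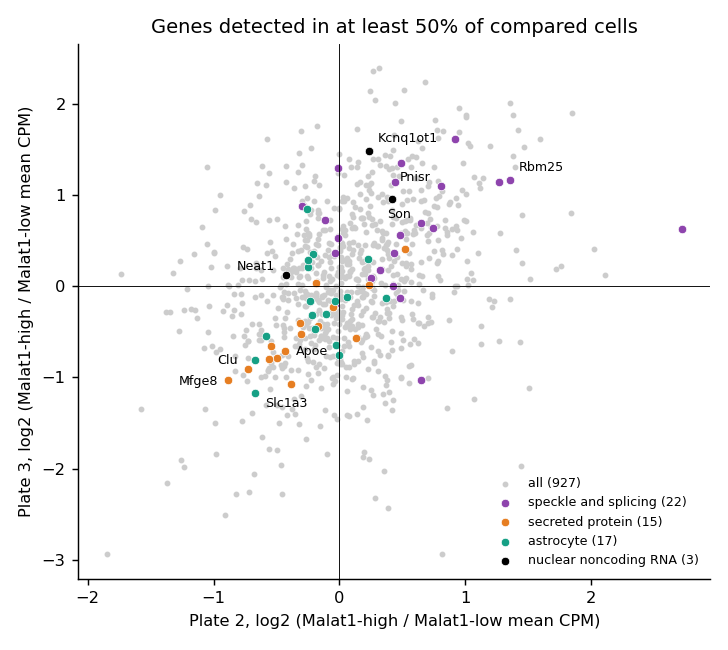
Log2 ratio of mean CPM, Malat1-high over Malat1-low, on plate 2 (horizontal) and plate 3 (vertical) for the 927 genes detected in at least 50% of compared cells. Colored points are members of 4 lists, the labeled genes were chosen after their values were seen, and the rho over all points is 0.343.

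The cells between the groups were described as well. From the lowest to the highest 20% of cells by Malat1, the mean summed level of the speckle and splicing list was 9434, 9809, 11486, 11614 and 12659 CPM on plate 2 and 9068, 10079, 10575, 10879 and 14136 CPM on plate 3. That of the secreted protein list was 98625, 99446, 87196, 82102 and 75811 CPM on plate 2 and 105176, 97427, 85586, 89756 and 72819.5 CPM on plate 3. For the astrocyte list it was 56923, 55553, 53367, 52438 and 49484 CPM on plate 2 and 59991, 56411, 60316.5, 55894 and 46094 CPM on plate 3. The nuclear noncoding RNA list was not graded, with 1608, 1274, 1083, 1612 and 1775 CPM on plate 2 and 1273, 1409, 1358, 1300 and 2204 CPM on plate 3. The speckle and splicing means thus went up at every step on both plates, but the medians did not. Those medians were 9625, 9044, 11137, 11119 and 12222 CPM on plate 2. On plate 3 they were 9076, 9050, 10080, 10489 and 13426.5 CPM. The secreted protein means did not go down at every step. When the 152 cells in neither group were themselves ranked by Malat1 and the 33.3% at each end were compared within each plate, an alternative added after the data were seen, the speckle and splicing list had summed log2 ratios of 0.22 on plate 2 and 0.11 on plate 3. The secreted protein list had -0.28 and -0.12, and the astrocyte list -0.065 and -0.013. Directions of these 3 lists were as between the groups, with smaller values on both plates over a narrower span of Malat1. The nuclear noncoding RNA list turned to -0.12 on plate 3, and on plate 2 total reads stood at a ratio of 1.01 and genes detected at 1.02. Of the single genes followed under the alternatives, several turned sign as well. On plate 2 these were Pnisr (-0.22), Rbm25 (-0.12), Srsf11 (-0.38), Syne1.1 (-0.031), Meg3 (-0.88), Firre (-0.34), Gas5 (-0.25) and Neat1 (0.38). On plate 3 they were Son (-0.083), Pnisr (-0.45), Gria2 (-0.093), Daam2 (-0.50), Mfge8 (0.089), Firre (-0.080), Gas5 (-1.48) and Neat1 (-1.75). Clu had -0.40 and -0.069 there, Apoe -0.32 and -0.061, Slc1a3 -0.50 and -0.14, and Lamp1 -0.55 and -0.46. By the 1.5-fold rule, 554 genes were higher and 462 lower on both plates between these cells, of 6027 tested.

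Cells with markers of other types were present in both groups, and their share did not move the same way on the plates. Cells with 3 or more markers of another type at 10 CPM were 12 of 32 cells (37.5%, exact binomial 95% interval 21.1 to 56.3%) of the high and 6 of 32 cells (18.8%, exact binomial 95% interval 7.21 to 36.4%) of the low group on plate 2. On plate 3 they were 2 of 17 cells (11.8%, exact binomial 95% interval 1.46 to 36.4%) of the high and 5 of 17 cells (29.4%, exact binomial 95% interval 10.3 to 56%) of the low group. The intervals cover counting error only. The 10 oligodendrocyte markers had a summed mean of 981 ± 785 and 1014 ± 773 CPM in low and high cells of plate 2 and 904 ± 613 and 299 ± 330.4 CPM on plate 3. The 10 neuron markers had 77.4 ± 205 and 273 ± 622 CPM on plate 2 and 196 ± 431 and 281 ± 567 CPM on plate 3. The 7 smooth muscle markers, the cell type in which the SM22 promoter is known to be active, had 67.2 ± 136 and 19.2 ± 41.2 CPM on plate 2 and 28.2 ± 66 and 35.6 ± 61.8 CPM on plate 3, and the median cell of every group had 0 of them detected. Summed levels were higher in high cells on both plates for the neuron, endothelial, pericyte and fibroblast lists, with log2 ratios of 1.82 and 0.52, 1.67 and 0.71, 0.52 and 0.86, and 1.34 and 1.64. These sums were small, and the mean was at most 26 CPM for endothelial and 266 CPM for pericyte markers in any high or low group. Without 1 cell, chosen for each value, the neuron list turned to -0.39 on plate 3 and stood at 1.27 on plate 2. In the same way the endothelial values were 0.38 and 0.62, the pericyte values 0.14 and 0.53, and the fibroblast values 0.85 and 0.15 on plates 2 and 3. The oligodendrocyte precursor list had 0.28 and 0.13, the latter -0.18 without 1 cell, and the microglia and macrophage list -0.48 and -0.80, the latter 0.26 without 1 cell of plate 3. Ependymal, choroid plexus and proliferating markers had means of at most 35.7 CPM in the high and low groups. When cells with such markers were left out before ranking, the speckle and splicing list had 0.36 and 0.40 and the secreted protein list -0.34 and -0.49 on plates 2 and 3. Total reads, genes detected, Rn45s and the share of the top genes moved with the groups as given above. The median well column was 10 in low and 14 in high cells of plate 2 and 14 and 11 on plate 3. For the well row, counted from A as 1, the medians were 10 and 8.5 on plate 2 and 5 and 9 on plate 3. The part of these measures in the gene differences was not tested.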

How the data were processed

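Per the labels, single cells were sorted and made into Smart-seq2 libraries. The deposited table holds whole-number read counts of the authors for 24490 gene rows and 250 cells, not normalized, per the values in the file. The submitters' processing notes name STAR 2.4.2a and mm10. The sources used here do not say how reads were counted, on which strand or annotation, or how cells were filtered. The authors' second deposited table holds a rounded score per gene and cell and was not used. All 250 columns matched a sample by name, and no cell was removed.

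CPM was computed from the deposited counts, for ranking with all reads and for everything else without Malat1 and Rn45s. Genes with a mean of at least 20 CPM over the compared cells of each plate were kept, and 1.5-fold on both plates was the limit. Thinning drew 50000 reads per cell with a fixed seed. The smallest total without Malat1 and Rn45s was 96966 reads. Shares carry exact (Clopper-Pearson) 95% intervals. PCR copies of a molecule are read more than once, so intervals and the limit of 3 reads cover counting error only. numpy 2.4.6, pandas 2.3.3, scipy 1.17.1 and matplotlib 3.10.9 were used, and the ratio script was tested on simulated data.

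The groups, the 21 gene lists (386 names, 382 with a row) and the rule for named genes were chosen with earlier results of these data known. Genes named outside the lists were the 15 highest and lowest by ratio and the 10 highest and lowest by rho, each by the weaker plate. No doublet caller was run, since each well received a sorted cell and the cells are few. Other group sizes, rankings, scalings, filters and depths were tried.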

Additional observations from a re-analysis of the deposited data

How the results depend on the processing

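The astrocyte, speckle and splicing, and secreted protein lists kept their direction on both plates under all 12 alternatives. Their summed log2 ratios ranged from -0.34 to -0.065 and -0.49 to -0.013, 0.22 to 0.63 and 0.11 to 0.74, and -0.50 to -0.28 and -0.76 to -0.12, on plates 2 and 3. These lists came nearest 0 on both plates in the upper and lower 33.3% of the 152 cells in neither group, chosen after seeing the data and sharing no cell with the compared groups. There total reads had a ratio of 1.01 on plate 2, genes detected had 1.02 on plate 2 and 0.915 on plate 3, the snoRNA host list had -0.022 on plate 2, and on plate 3 the lists had -0.12 (nuclear noncoding RNA), -0.013 (astrocyte), 0.11 (speckle and splicing), -0.12 (secreted protein) and -0.97 (snoRNA host). Genes that turned there were, on plates 2 and 3, Pnisr (-0.22, -0.45), Firre (-0.34, -0.080), Gas5 (-0.25, -1.48) and Neat1 (0.38, -1.75), on plate 2 Rbm25 (-0.12), Srsf11 (-0.38), Syne1.1 (-0.031) and Meg3 (-0.88), and on plate 3 Mfge8 (0.089), Son (-0.083), Gria2 (-0.093) and Daam2 (-0.50). These cells span less Malat1 than the compared groups, and the cause was not tested.

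Ranking within 2 parts of each plate by genes detected gave genes detected 0.921 and the astrocyte list -0.17 on plate 3, as that ranking evens out genes detected. Meg3 turned on plate 3 with groups of 10% (-0.82) and in that ranking (-0.16), and on both plates without cells with 3 markers of another type (-1.66 and -1.05). Neat1 turned in 2 alternatives on plate 2 and 4 on plate 3, Kcnq1ot1 in 2 and Gas5 in 3 on plate 2, the respiratory chain list in 4 on plate 2, and the immediate early and stress list in 3 on plate 3. Total reads of plate 3 ranged to a ratio of 1.01 and genes detected of plate 2 to 1.02, past 1 in 1 alternative each. The nuclear noncoding RNA list of plate 2 ranged from -0.068 to 0.41 and the ribosomal protein list of plate 2 from -0.065 to 0.21. Higher and lower genes on both plates numbered 1224 and 978 of 8847 tested at a mean of 5 CPM and 360 and 228 of 3163 at 50 CPM. They were 1528 and 1343 of 24488 with no filter and 385 and 255 of 5897 at 2-fold. Among the 927 genes detected in 50% of compared cells they were 78 and 36. The last filter, the cells left out one at a time and a run without cells under 10000 or over 100000 Malat1 CPM were also chosen after seeing the data, as were the single genes followed here. CPM of the whole total gave 654 higher and 594 lower genes of 5737 tested and median shifts of 0.03 and 0.03. No paired analysis was possible because the cells form 1 labeled group. Cells on either side of a cut had nearly equal Malat1 CPM (21940 and 22137 at the low cut of plate 2), so these reads do not resolve which of them belong in a group.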
